A study of Drosophila melanogaster with 6 samples.

Results

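The 8 genes described here mark neurons and glia in Drosophila melanogaster, and they were taken by name: CadN, CadN2, Sh, Gad1, VGlut, VAChT, elav and repo. They are 8 of the 13402 genes that a row of the array named on its own, and each of the 8 had a single row. Genes whose mean over the arrays fell in the dimmest 25%, under 2.63 on the log2 scale, were set aside, and tests ran on the other 10051. Of the 8 genes 7 passed that filter, and CadN2 did not.

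Larvae of the strain w1118 were fed from the egg for 5 days. The juice group ate a semi-purified diet to which palm fruit juice had been added, an aqueous oil palm extract rich in phenolic compounds, and the control group had the semi-purified diet only. There were 3 arrays per group, each with RNA from the whole bodies of a pool of 3 to 4 larvae. Values are log2 expression as deposited, so a difference of 1 is a 2-fold ratio, and every difference is the juice mean minus the control mean. Labels do not say that the pools came from separate cultures, so p-values measure only the spread between pools. In whole-body RNA, fewer cells of a type and less RNA per cell cannot be told apart.

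Larval neurons are born from neuroblasts, take on their fate under RNA-binding and transcription factors, and then build adhesion proteins, ion channels and the machinery of a transmitter. Most fast excitation in the fly brain uses acetylcholine, motor neurons release glutamate onto body-wall muscle, and GABA carries inhibition. Cadherins hold axons and synaptic partners together by binding the same cadherin on the next cell. Voltage-gated potassium channels end each spike and set how readily a cell fires again.

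Across all tested genes limma called 0 at an adjusted p under 0.05 (smallest adjusted p = 0.931), and 470, or 4.68%, had an unadjusted p under 0.05. Pairs of arrays correlated at 0.940 to 0.984 across genes. Control replicate 1 and juice replicate 2 stood apart. They differed 2-fold or more from the average of the remaining arrays in 536 and 440 genes, whereas the other arrays did so in 54 to 178. Many of the counts and differences that lean on juice replicate 2 are followed by their value without it, but not all.

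None of the 8 genes passed limma's adjusted test. The cadherin CadN and the channel Sh had juice means lower than their control means by 1.07 and 0.58 (log2), while the transmitter genes differed little. CadN2 lay at the dim end of the scale in every pool. Gad1, VAChT and repo were also among the dimmest 50% of genes, with group means of 2.98 to 3.45. CadN and Sh had control means of 4.75 and 4.61, so the roles were not compared at like brightness. Lower juice means were seen in 4 of the 8 genes, CadN, CadN2, Sh and repo, and higher ones in Gad1, VGlut, VAChT and elav. In CadN and repo every juice pool lay below every control pool, which makes 2 of 7 tested genes against 5.08% of all tested genes. CadN alone had an unadjusted p under 0.05 on the lower side, where 2.00% of all tested genes did.

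**Figure D1:**
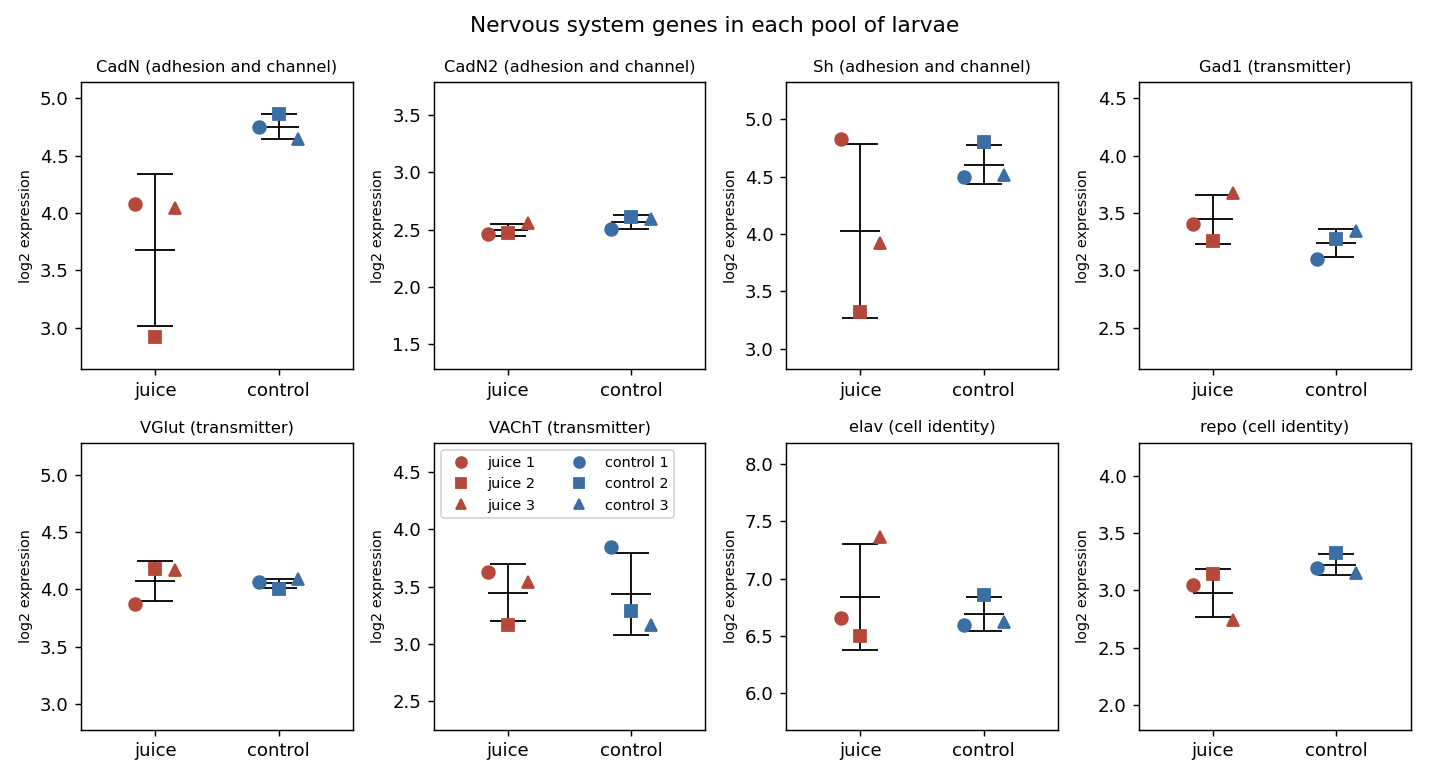
Log2 expression of the 8 genes in each pool, juice pools on the left of each panel and control pools on the right. Each symbol is 1 array, the bars are the mean and SD of 3 arrays, and every panel spans the same number of log2 units. The CadN and repo pools do not overlap between groups, while juice replicate 2 is far below the other juice pools in CadN and Sh.

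CadN encodes N-cadherin, the main classical cadherin of fly neurons, which guides axons to their targets. It measured 4.08, 2.92 and 4.05 in juice replicates 1, 2 and 3, against 4.75, 4.86 and 4.65 in control replicates 1, 2 and 3. All juice pools were lower than all control pools, and juice replicate 2 was lower than the other juice pools by more than they were below control. The means were 3.68 ± 0.66 in juice and 4.75 ± 0.11 in control larvae (SD, n = 3 per group), a control level 2.10-fold that of juice. The difference was -1.07 ± 0.31 (SE), with a 95% interval of -1.81 to -0.34, an unadjusted p of 0.0106 and an adjusted p of 0.931 by limma. Leaving out juice replicate 2 gave -0.69 ± 0.14 (limma, unadjusted p = 0.00241, adjusted p = 0.921).

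CadN2 encodes a second, shorter N-type cadherin that acts beside CadN in photoreceptor targeting. Its gene is the direct neighbour of CadN, with 0 annotated genes lying between them. It measured 2.46, 2.47 and 2.56 in juice replicates 1, 2 and 3, against 2.50, 2.61 and 2.59 in control replicates 1, 2 and 3. The groups overlapped, and all pools lay below the filter of 2.63, so a lower level in 1 group could hardly have been seen. With no filter on dim genes the difference was -0.07 ± 0.10 (limma, unadjusted p = 0.487, adjusted p = 0.958).

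Sh encodes Shaker, the voltage-gated potassium channel of the fast transient current in neurons and body-wall muscle. It measured 4.83, 3.32 and 3.92 in juice replicates 1, 2 and 3, against 4.50, 4.80 and 4.52 in control replicates 1, 2 and 3. The juice pools surrounded the control pools: juice replicate 1 was the highest of all arrays, and juice replicates 2 and 3 were the lowest. The means were 4.02 ± 0.76 in juice and 4.61 ± 0.17 in control larvae (SD, n = 3 per group), and the difference was -0.58 ± 0.36 (95% interval -1.42 to 0.26, limma's unadjusted p = 0.145 and adjusted p = 0.931). Its size turned on single arrays. It was -0.98 without juice replicate 1 (unadjusted p = 0.00528, adjusted p = 0.668) and -0.23 without juice replicate 2 (unadjusted p = 0.451, adjusted p = 0.925).

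Spread between juice pools was large in both of these genes. The SD over the juice pools exceeded that of Sh in 2.72% of tested genes and that of CadN in 4.39%. In 6 of the 8 genes the juice SD was larger than the control SD, as it was in 62.2% of all tested genes. The exceptions were CadN2 and VAChT.

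The transmitter genes showed no such split. Gad1, the glutamate decarboxylase that makes GABA, measured 3.41, 3.26 and 3.68 in juice replicates 1, 2 and 3, against 3.10, 3.27 and 3.34 in control replicates 1, 2 and 3. Juice replicates 1 and 3 lay above all control pools, and juice replicate 2 within them. The difference was 0.21 ± 0.16, with a 95% interval of -0.17 to 0.59 (limma, unadjusted p = 0.236, adjusted p = 0.931).

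VGlut encodes the vesicular glutamate transporter, which loads synaptic vesicles of motor neurons. It measured 3.87, 4.18 and 4.16 in juice replicates 1, 2 and 3, against 4.06, 4.00 and 4.09 in control replicates 1, 2 and 3. The control pools sat inside the range of the juice pools, and juice replicate 2 was here the highest array. The difference of 0.02 ± 0.14 had a 95% interval of -0.32 to 0.36 (limma, unadjusted p = 0.887, adjusted p = 0.994), which leaves out a CadN-sized difference in either direction.

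VAChT encodes the vesicular acetylcholine transporter and lies within the bounds of ChAT, the gene of the enzyme that makes acetylcholine. It measured 3.63, 3.16 and 3.54 in juice replicates 1, 2 and 3, against 3.84, 3.29 and 3.17 in control replicates 1, 2 and 3. The groups overlapped widely, with control replicate 1 the highest array and juice replicate 2 level with control replicate 3. The difference was 0.01 ± 0.22 (95% interval -0.51 to 0.54, limma's unadjusted p = 0.960 and adjusted p = 0.998). ChAT had its own row, which was below the filter, with juice values of 2.46, 2.74 and 2.76 and control values of 2.43, 2.49 and 2.63.

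The average of the transmitter genes varied little over the pools, and that of the adhesion and channel genes varied widely. Single genes did not all do so: the SD over the arrays was 0.28 for VAChT and 0.06 for CadN2. The mean of Gad1, VGlut and VAChT, each centred on its own mean over the 6 arrays, was 0.02, -0.08 and 0.18 in juice replicates 1, 2 and 3, against 0.05, -0.09 and -0.08 in control replicates 1, 2 and 3. The same mean for CadN, CadN2 and Sh was 0.10, -0.79 and -0.18 in the juice pools, against 0.23, 0.40 and 0.23 in the control pools. Transmitter minus adhesion and channel genes gave -0.08, 0.70 and 0.36 in juice replicates 1, 2 and 3, against -0.17, -0.50 and -0.31 in control replicates 1, 2 and 3. All juice pools lay above all control pools in this quantity, but juice replicate 1 was closer to control replicate 1 than to either juice pool. The group means were 0.33 ± 0.39 in juice and -0.33 ± 0.16 in control larvae (SD, n = 3 per group), a difference of 0.66. That difference was 0.47 with juice replicate 2 left out. Without CadN2, which was below the filter, the means were 0.45 ± 0.62 in juice and -0.45 ± 0.18 in control larvae, a difference of 0.91. No p is given, since the genes were chosen with results of these arrays known.

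**Figure D2:**
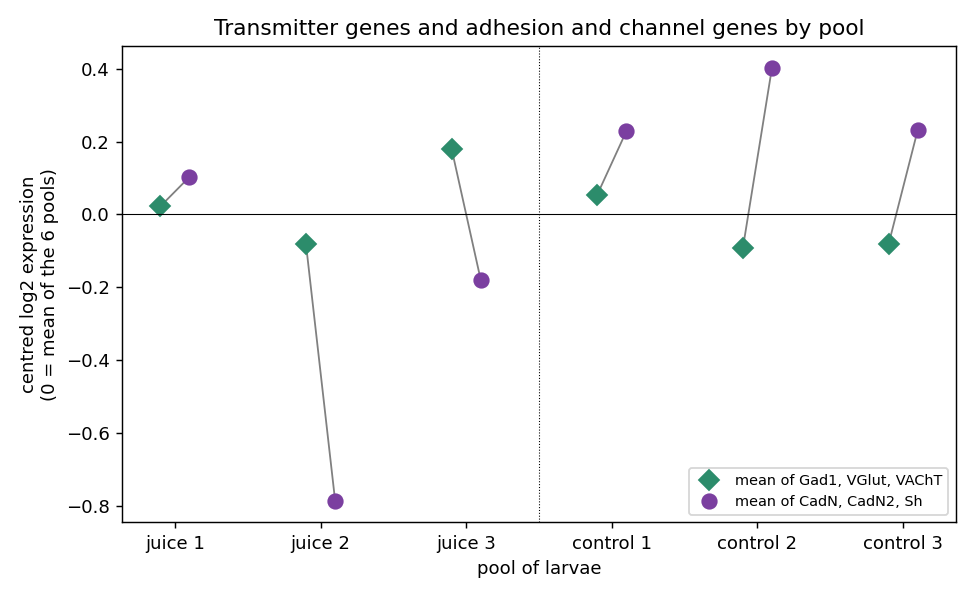
Mean centred log2 expression of the transmitter genes (diamonds) and of the adhesion and channel genes (circles) in each pool, with a line joining the 2 means of a pool. The diamonds stay between -0.09 and 0.18 in all pools, whereas the circles reach -0.79 in juice replicate 2 and 0.40 in control replicate 2.

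The cell identity genes differed from each other. elav encodes the RNA-binding protein found in nearly all postmitotic fly neurons. It measured 6.65, 6.50 and 7.36 in juice replicates 1, 2 and 3, against 6.59, 6.86 and 6.62 in control replicates 1, 2 and 3. Juice replicate 3 stood above every other array and juice replicate 2 was the lowest. The difference was 0.15 ± 0.24 (95% interval -0.41 to 0.71, limma's unadjusted p = 0.551 and adjusted p = 0.956), and leaving out juice replicate 3 gave -0.11 and leaving out juice replicate 2 gave 0.32. In juice replicate 3 markers of the growing nervous system and of imaginal discs were also high: the array was the highest for 6 of 8 neuroblast genes, 4 of 8 eye-antennal disc markers and 6 of 8 wing and leg disc markers, where it was highest for 17.5% of all tested genes. Summed linear levels of the neuroblast genes were 503, 401 and 668 in the juice pools, against 651, 552 and 540 in the control pools. brat, a growth regulator active in many tissues, supplied most of this, and without it the sums were 143, 85.6 and 173 in juice and 200.4, 179 and 147 in control pools. The part of neuroblast and disc tissue in the elav value was not tested.

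repo encodes a homeodomain transcription factor that marks most glia. It measured 3.05, 3.14 and 2.75 in juice replicates 1, 2 and 3, against 3.20, 3.33 and 3.15 in control replicates 1, 2 and 3. The groups did not overlap, though juice replicate 2 and control replicate 3 were almost level. The difference was -0.25 ± 0.16 (95% interval -0.61 to 0.12, limma's unadjusted p = 0.156 and adjusted p = 0.931), and it shrank to -0.13 without juice replicate 3, the array in which elav was highest. Of the other glial genes 5 of 15 tested had a higher juice mean and 10 a lower one, or 8 without juice replicate 2. Their median difference was -0.05, and -0.03 without that array. Their summed linear level ran from 1433 to 2084 in juice and from 2029 to 2607 in control pools, most of it from the glutamine synthetase gene Gs2. Without Gs2 it ran from 635 to 867 in juice and from 759 to 777 in control pools, so the juice pools lay on both sides of the control pools. Cont was the brightest of the genes left in that sum. Both sums are whole-body levels, and the part of cells other than glia in them was not tested. Nrx-IV, a neurexin of septate junctions, was the only one of these other glial genes at an unadjusted p under 0.05 by limma. It measured 6.17, 5.65 and 6.53 in juice and 6.58, 6.68 and 6.84 in control pools. Its difference was -0.58 ± 0.23 (limma's adjusted p = 0.931), and -0.35 without juice replicate 2.

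How alike the genes ran over the 6 arrays was measured as the root mean square difference between their centred values. CadN and Sh were 0.36 apart, while CadN was 0.68 and Sh 0.62 from elav. Gad1 and elav, both highest in juice replicate 3, were 0.17 apart, and elav and repo 0.43. Gad1 and repo varied little themselves, with an SD over the arrays of 0.19 and 0.20, so these 2 values say little about likeness. Pairs of nearly flat genes score low for that reason alone, as CadN2 and VGlut did at 0.11. The 3 tested genes closest to CadN were Dtg at 0.18, Frq1, a neuronal calcium sensor, at 0.18 and loaf at 0.19. Those closest to Sh were uncNacbeta at 0.086, kibra, a regulator of the Hippo growth pathway, at 0.12 and Msp300, a giant nuclear anchoring protein of muscle, at 0.12. All 3 were lowest in juice replicate 2, as Sh was, which a choice by likeness to Sh favours in advance. The genes closest to elav were Dp, a partner of the E2F cell cycle factors, at 0.084, CG7252 at 0.091 and CG4577 at 0.093. The other members varied too little over the arrays, with an SD under 0.3, for their closest genes to be sought.

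**Figure D3:**
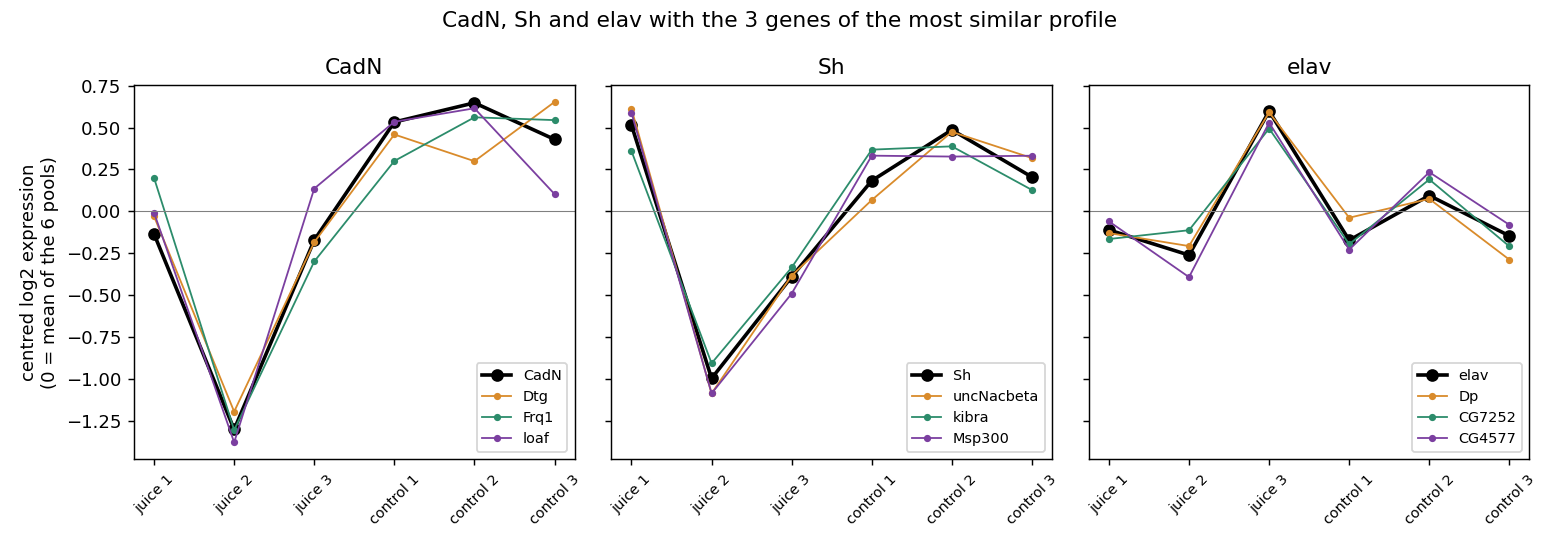
Centred log2 expression of CadN, Sh and elav (black) over the juice and control pools, each with the 3 tested genes of the smallest root mean square difference from it. The CadN and Sh panels share a minimum in juice replicate 2, and the elav panel has its maximum in juice replicate 3.

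A feature shared by the adhesion and channel genes, and by none of the others, was the length of the gene. The annotated span was 131 kb for CadN, 88.3 kb for CadN2 and 139 kb for Sh, against 14.7 kb for Gad1, 13.4 kb for VAChT, 10.4 kb for VGlut, 14.0 kb for elav and 3.41 kb for repo. Juice replicate 2 was the lowest array for 77.8% of the 63 tested genes of 100 kb or more, 60.7% of those of 50 to 100 kb, 53.1% of those of 20 to 50 kb, 37.2% of those of 5 to 20 kb and 15.3% of those under 5 kb. The share grew with length in every step. In that array the median centred value was -0.45 for genes of 100 kb or more and 0.10 for genes under 5 kb. In the other juice pools the median of the longest genes was 0.08 and 0.03, and in the control pools it was 0.18, 0.06 and 0.06. These length classes were chosen after the values had been seen.

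**Figure D4:**
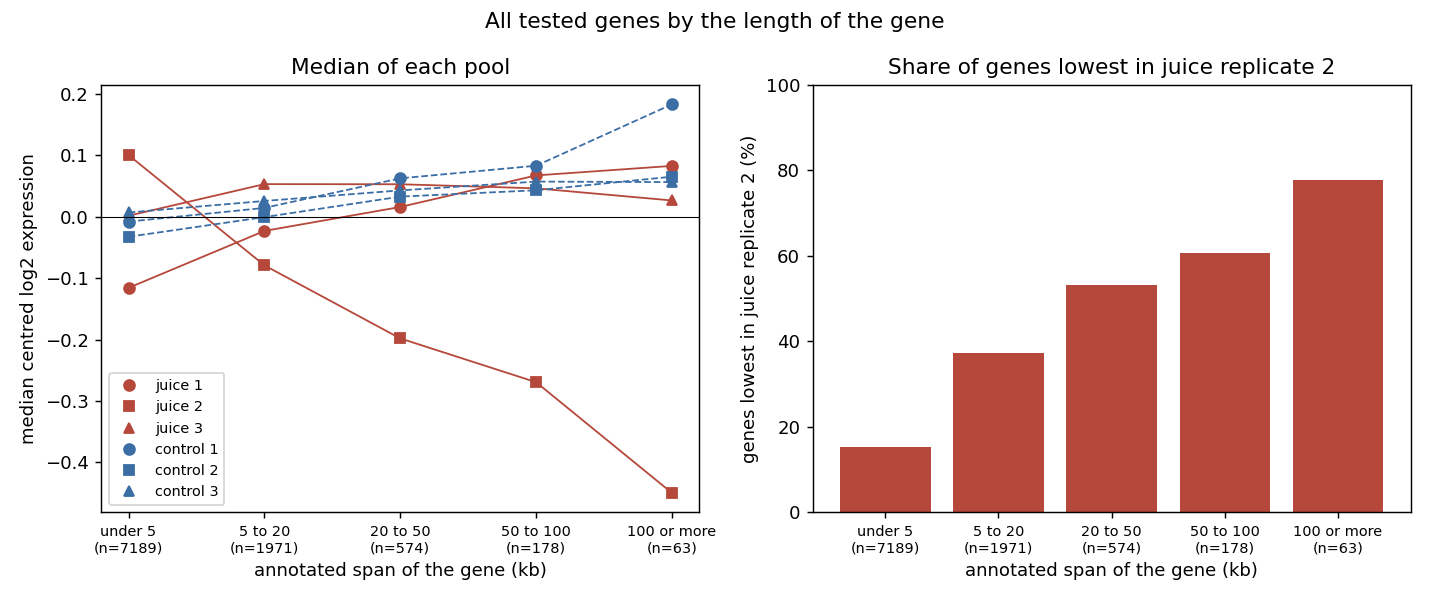
Tested genes grouped by annotated span in kb, with the number of genes under each class. The left panel gives the median centred log2 expression in each pool and the right panel the share of genes that were lowest in juice replicate 2. The line of juice replicate 2 runs down to -0.45 at 100 kb or more, and the share reaches 77.8%.

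The values of CadN and Sh are given here beside those of genes of like length, as a description. The median difference of the 63 longest genes was -0.21, and 0 of them had a lower difference than CadN while 6 had a lower one than Sh. In juice replicate 2 itself 2 of the 63 lay lower than CadN and 9 lower than Sh, relative to their own means. Without juice replicate 2 the median of the longest genes was -0.02, and 0 of the 63 lay below CadN, at -0.69, and 8 below Sh, at -0.23. CadN was the only gene of 100 kb or more with a lower juice mean at an unadjusted p under 0.05, and 0 of these genes had a higher one. That is 1.59% of the 63 genes on the lower side, against 2.00% of all tested genes. CadN and Sh were chosen with results of these arrays known, so their places among the 63 are no test.

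Other genes of the nervous system, from lists drawn up by function, gave 144 tested genes beside the 8 genes. Their juice mean was lower in 102, or 70.8%, against 55.1% of all tested genes, and the median difference was -0.10 against -0.03. By limma 0 passed the adjusted test, with 3 lower and 1 higher at an unadjusted p under 0.05, where 2.00% and 2.68% of all tested genes were. Juice replicate 2 was the lowest array for 73 of the 144, or 50.7%, against 23.2% of all tested genes. As given above, this share ran from 15.3% of genes under 5 kb to 77.8% of those of 100 kb or more. The lists, the cadherins below among them, were not matched to all tested genes for length. The part of length in the share of the 144 genes was not tested. With juice replicate 2 left out, 76 of the 144, or 52.8%, had a lower juice mean, against 58.1% of all tested genes. The median difference was then -0.01 against -0.04.

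Cadherins are the family of CadN. All 8 tested genes of a list of other cadherins had a lower juice mean, with differences of -0.99 to -0.11 and a median of -0.25, and all 8 were lowest in juice replicate 2. In that array their median centred value was -0.67, and in the other juice pools 0.03 and 0.16, against 0.19, 0.20 and 0.20 in control pools. Without juice replicate 2 the median difference of the list was -0.07, with 6 of 8 lower and Cad87A and Cals higher, at 0.16 and 0.04. stan, the seven-pass cadherin Flamingo of planar polarity and dendrite growth, had the smallest p, with 5.36, 4.50 and 5.16 in juice and 5.57, 5.49 and 5.57 in control pools (difference -0.54 ± 0.23, limma's unadjusted p = 0.0499, adjusted p = 0.931, and -0.28 without juice replicate 2). kug, a Fat-like cadherin of epithelia named after its values were seen, had the largest difference, with 6.61, 4.71 and 6.38 in juice and 6.90, 6.96 and 6.81 in control pools (difference -0.99, and -0.39 without juice replicate 2). Cell adhesion and axon guidance genes outside the family had a median difference of -0.15, with 22 of 27 lower, 15 of the 27 lowest in juice replicate 2 and 0 at an unadjusted p under 0.05. Without that array 20 of 27 were lower, with a median of -0.10.

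Ion channels other than Sh were mixed, with 11 of 17 lower and a median difference of -0.08, or 7 of 17 and 0.03 without juice replicate 2. Irk3, an inward rectifier potassium channel, was the only one at an unadjusted p under 0.05 and was higher, with 5.16, 5.47 and 5.18 in juice and 4.50, 4.90 and 4.73 in control pools (difference 0.56 ± 0.17, limma's unadjusted p = 0.0111, adjusted p = 0.931, and 0.46 without juice replicate 2). It did not overlap between the groups, as was so on the higher side for 4.96% of all tested genes. Juice replicate 2 was its highest array, the reverse of Sh. Sh itself was measured beside muscle markers, since body-wall muscle uses this channel too. Their summed linear level over the 6 matched genes was 8558, 7770 and 5861 in juice replicates 1, 2 and 3, against 4520, 5806 and 4545 in control replicates 1, 2 and 3. The light chains Mlc1 and Mlc2 made up most of it, with 6043, 6472 and 4753 in juice and 3305, 4331 and 3500 in control pools. The other 4 genes summed to 2515, 1297 and 1108 in juice and 1214, 1475 and 1045 in control pools, highest, like Sh, in juice replicate 1. Among them sls and bt, giant sarcomere proteins, were also lowest in juice replicate 2. The part of muscle in the Sh value was not tested.

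Around the transmitter genes, the 7 other tested genes of transmitter synthesis and transport had 5 lower and 2 higher juice means, a median difference of -0.08 and 0 at an unadjusted p under 0.05. Juice replicate 2 was the lowest array for 1 of the 7. Synaptic vesicle release genes had 12 of 17 lower, a median of -0.12, also 0 at an unadjusted p under 0.05, and 12 of 17 lowest in juice replicate 2. Without that array 8 of 17 were lower, with a median of 0.03. Among them the neuronal synaptobrevin nSyb measured 4.47, 3.57 and 4.61 in juice and 5.11, 4.46 and 4.53 in control pools, and the active zone scaffold brp 3.26, 2.75 and 3.35 in juice and 3.51, 3.50 and 3.26 in control pools. These defining markers of neurons, like elav, were thus above the filter and lowest in juice replicate 2. Without that array the differences were -0.16 for nSyb and -0.12 for brp, but 0.32 for elav.

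Transmitter receptors had 14 of 20 lower and a median difference of -0.06, or 8 of 20 and 0.04 without juice replicate 2. Lcch3, a subunit of ligand-gated chloride channels of the GABA receptor family, was the only one at an unadjusted p under 0.05, with 3.37, 3.31 and 3.61 in juice and 3.81, 3.71 and 3.88 in control pools (difference -0.37 ± 0.14, limma's adjusted p = 0.931, and -0.31 without juice replicate 2). In the small list of neuronal RNA-binding, cytoskeletal and transcription factors 6 of 7 had a lower juice mean and the same number were lowest in juice replicate 2. The median difference was -0.35, and -0.03 without that array, with 5 of 7 lower. Both relatives of elav in it ran apart, most of all in juice replicate 2. fne measured 6.29, 4.52 and 6.65 in juice and 6.56, 6.67 and 6.48 in control pools. Rbp9 measured 7.03, 7.53 and 7.34 in juice and 7.35, 6.81 and 7.06 in control pools. The differences of fne and Rbp9 were -0.75 and 0.23, and -0.10 and 0.11 without juice replicate 2. Neuropeptide genes were evenly split, with 10 of 19 higher and 9 lower, a median of 0.06, 0 at an unadjusted p under 0.05 and 3 of 19 lowest in juice replicate 2. Leaving out that array gave 13 of 19 higher and a median of 0.05.

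**Figure D5:**
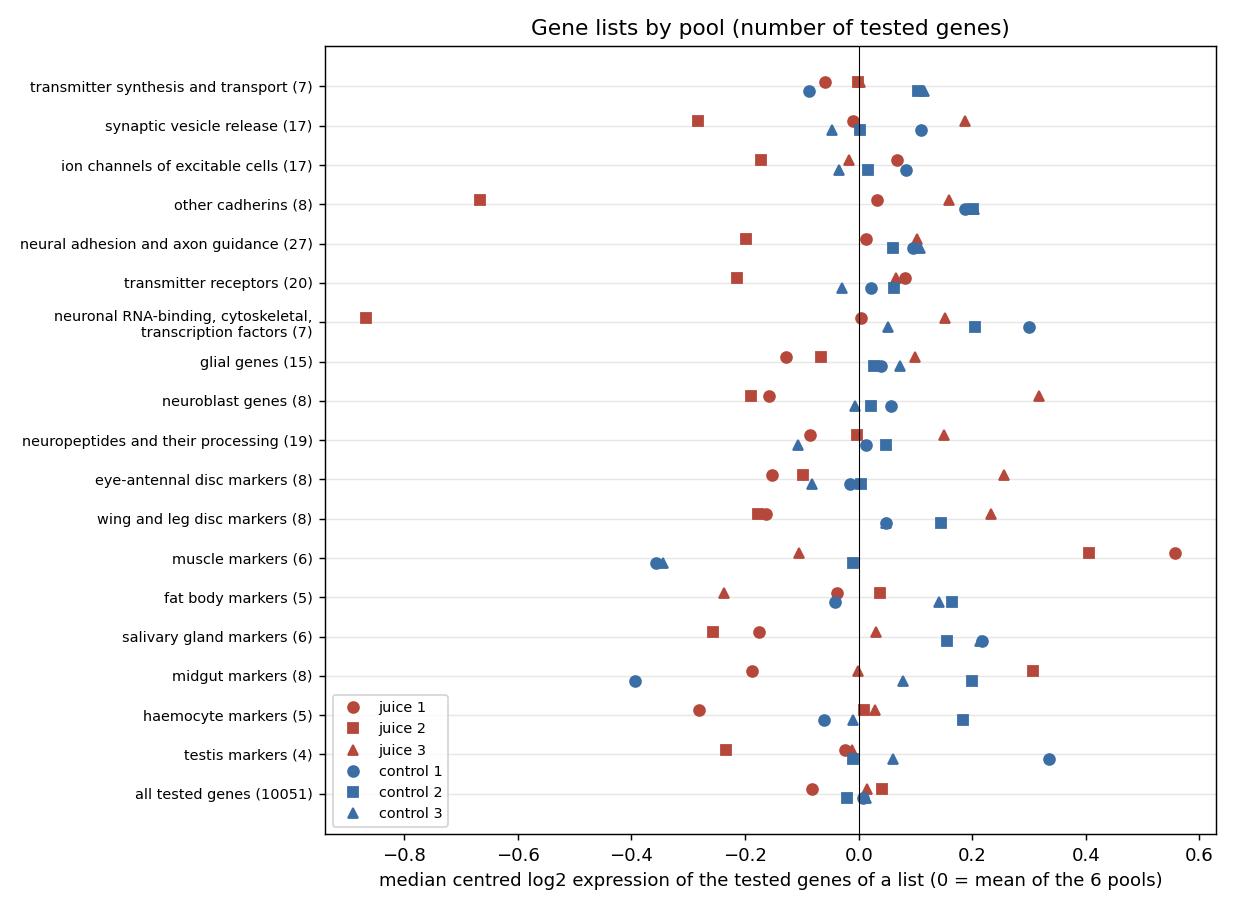
Median centred log2 expression of the tested genes of each list in each pool, juice pools drawn above control pools in a row and the number of tested genes in brackets. Juice replicate 2 lies at -0.87 for the neuronal RNA-binding, cytoskeletal and transcription factor list and at -0.67 for the other cadherins, against 0.04 for all tested genes.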

How the data were processed

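The deposited table gives log2 expression, 1 value for each row of an array. Per the submitters' processing notes the tools were Affymetrix Expression Console 1.4.0.38 and RMA, a method that generally brings arrays to a common distribution and can hide a shift shared by most transcripts. Of 16322 rows, 13441 named 1 gene, and the brightest row was kept per gene. Names and spans came from a RefSeq table of Release 6 plus ISO1 MT, and 9975 of the 10051 tested genes had a span. limma 3.58.1 (lmFit, eBayes) in R 4.3.3 fitted diet without covariates, adjusting p-values by Benjamini-Hochberg over all tested genes. The number of arrays limits precision, and the median SE of a difference was 0.18. In simulated data with 200 of 10051 genes changed, some by less than 2-fold, 39.3% of 2-fold and 83.9% of 4-fold changes were recovered. Of the calls 5.09% were false. The noise was normal and independent between genes, with the same SD in both groups. Deviations that many genes of an array share, as in juice replicate 2, were not simulated, so these rates need not hold for these arrays.

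The 8 genes and 18 gene lists were chosen with earlier results of these data known, and 219 of 260 list names matched a row. By rule, list members at unadjusted p under 0.05, up to 4 a list, were named, as were the 3 nearest profiles of each member with an SD of at least 0.3. Other named genes were picked after their values were seen. Replicate numbers were not taken as pairs: same-numbered juice and control arrays deviated from their group means with correlations of -0.11, -0.07 and -0.08. Alternatives were each array left out, the replicate block, other filters, quantile normalization, equal medians, averaged rows, an intensity trend and array weights. Leaving out the 2 arrays that stood apart was added after seeing the data.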

Additional observations from a re-analysis of the deposited data

How the results depend on the processing

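CadN, Sh, Gad1 and repo kept their direction under every alternative in which they could be tested, with differences of -1.27 to -0.69, -0.98 to -0.23, 0.09 to 0.30 and -0.34 to -0.13, and no member passed the adjusted test under any of them. Members at an unadjusted p under 0.05 numbered 1 to 2 with 1 array left out, the second being Sh without juice replicate 1. They numbered 2 with array weights, where repo joined CadN (-0.34, limma's unadjusted p = 0.0499). Genes called over the whole table numbered 0 to 4 with 1 array left out, the 4 arising without juice replicate 3. Transmitter minus adhesion and channel genes ran from 0.47 to 0.86 with 1 array left out. Differences near 0 turned sign. With 1 array left out VAChT ran from -0.12 to 0.22 (0.36, unadjusted p = 0.0726 by limma, with both arrays that stood apart left out), below 0 without juice replicate 1 (-0.08) or 3 (-0.04) and without control replicate 2 (-0.06) or 3 (-0.12). VGlut ran from -0.033 to 0.12, below 0 without juice replicate 2 (-0.033) or 3 (-0.025) and without control replicate 2 (-0.0025), and was -0.027 with the same pair left out. elav ran from -0.11 to 0.32, below 0 without juice replicate 3. The cause was not tested. With the replicate number as a block CadN was -1.07 (limma's unadjusted p = 0.0164, adjusted p = 0.980), 0 genes were called, and the transmitter contrast was 0.66. CadN2 could be tested only without the filter on dim genes. The median difference of all genes was -0.025 as deposited, 0.0034 after quantile normalization and 0.020 with equal medians.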

Other observations

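Muscle genes did not move as 1 group. The myosin light chains Mlc1 and Mlc2, troponin T (up) and tropomyosin Tm2 had differences of 0.60 ± 0.18, 0.65 ± 0.19, 0.62 ± 0.22 and 0.57 ± 0.23 (SE, limma's adjusted p = 0.931 for each, unadjusted p = 0.0109 to 0.0430). Mlc2 measured 11.77, 11.98 and 11.48 in juice replicates 1, 2 and 3, against 10.86, 11.34 and 11.07 in control replicates 1, 2 and 3. The giant sarcomere proteins sls and bt, fly relatives of titin, did not share this order. sls measured 8.14, 6.23 and 6.27 in the juice pools, against 7.15, 7.26 and 6.90 in the control pools, and bt 10.18, 7.88 and 8.50 against 9.03, 9.29 and 8.67. In both, as in Sh, juice replicate 1 was the highest array and juice replicate 2 the lowest. Their differences were -0.22 and -0.14 (limma, unadjusted p = 0.666 and 0.798, adjusted p = 0.974 and 0.983), and they were picked out after their values were seen. Without juice replicate 2 all 6 tested muscle markers had a higher juice mean.

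Salivary glue genes, which late larvae make before pupariation, had a lower juice mean in 6 of 6 tested members, with a median difference of -0.36, and -0.33 without juice replicate 2. Sgs4 had the smallest p, at 5.34, 4.67 and 4.96 in juice pools, against 5.58, 5.58 and 5.59 in control pools (limma, unadjusted p = 0.0150, adjusted p = 0.931). Its difference was -0.60, and -0.44 without juice replicate 2. Fat body markers had 3 of 5 lower and a median of -0.15, midgut markers 2 of 8 lower and a median of 0.11, haemocyte markers 2 of 5 lower and a median of 0.03, and testis markers 3 of 4 lower and a median of -0.21. Without juice replicate 2 the medians of these lists were -0.21, -0.06, -0.08 and -0.14.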
